A study of Mus musculus with 6 samples.

Results

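The genes described here are 8 genes of the B lymphocyte and the gene of a cytokine that keeps B lymphocytes alive, 9 genes of the 54532 listed for the intestine of newborn mice. They were taken by gene name: Cd79a, Cd79b, Ighm, Ighd, Igkc, Ms4a1, Cd22, Pax5 and Tnfsf13b, each of which had 1 row in the tables. The members were chosen by their lower counts in the treated libraries, so their difference between the groups is a description here and carries no test. Both groups were intestine of newborn C57BL/6 mice, an inbred laboratory strain. The DMSO group had 5 days with DMSO, a solvent used as the vehicle control, and the NECA group had 5 days with NECA (N-ethylcarboxamidoadenosine), an adenosine analogue that activates several adenosine receptors. Each group had 3 libraries. The labels name neither the segment of bowel nor the route and dose of NECA, and nothing in them tells if each library is another animal, so spreads and p-values may in part be technical.

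A B cell carries its receptor on the surface as a membrane immunoglobulin, built from heavy chains (Ighm encodes the mu chain of IgM and Ighd the delta chain of IgD) and light chains (Igkc encodes the constant part of kappa). The immunoglobulin has almost no tail inside the cell and signals through a pair of partner chains, Cd79a and Cd79b. The cytokine BAFF, encoded by Tnfsf13b, is made mainly by myeloid and stromal cells and sustains mature B cells through the BAFF receptor Tnfrsf13c. In the gut, B cells gather in Peyer's patches and smaller follicles and later give rise to the plasma cells that make IgA.

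Of the 9 members, 4 had start sites in RefSeq's promoter table (GRCm38.p6), with 5 windows of 300 bases that run from 250 before the start to 50 after it. Windows of 3 genes are shown because these genes differ in how their levels ran over the libraries. Cd79a ran from high to near 0 and Cd22 over a narrower range, both with overlapping groups, and Tnfsf13b split by treatment. Capitals mark matches to the motifs searched on both strands, which were the octamer ATTTGCAT, an Ebf1 motif CCCNNGGG, an Ets motif GGAAGT, an E-box CAGGTG, an interferon response motif (2 GAAA repeats with 2 bases between them) and a Stat motif TTCNNNGAA.
Cd79a, chr7:24897247-24897546, plus strand: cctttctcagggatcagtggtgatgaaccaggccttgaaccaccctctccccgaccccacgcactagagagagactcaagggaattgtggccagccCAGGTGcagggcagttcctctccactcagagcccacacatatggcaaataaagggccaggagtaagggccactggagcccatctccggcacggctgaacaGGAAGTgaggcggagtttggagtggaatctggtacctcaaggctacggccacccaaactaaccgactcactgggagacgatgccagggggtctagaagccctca
Cd22, chr7:30878979-30879278, minus strand: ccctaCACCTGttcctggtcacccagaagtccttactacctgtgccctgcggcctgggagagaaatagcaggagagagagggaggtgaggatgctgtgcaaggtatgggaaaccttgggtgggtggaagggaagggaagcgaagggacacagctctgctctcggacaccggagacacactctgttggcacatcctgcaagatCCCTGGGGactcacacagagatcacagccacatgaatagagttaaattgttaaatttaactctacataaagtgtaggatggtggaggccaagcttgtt
Tnfsf13b, the downstream of its start sites, chr8:10006383-10006682, plus strand: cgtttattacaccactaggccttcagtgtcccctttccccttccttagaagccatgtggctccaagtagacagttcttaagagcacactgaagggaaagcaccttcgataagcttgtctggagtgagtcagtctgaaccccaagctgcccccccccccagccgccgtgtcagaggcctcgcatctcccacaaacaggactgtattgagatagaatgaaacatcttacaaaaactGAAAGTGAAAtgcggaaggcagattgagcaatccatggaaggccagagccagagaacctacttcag

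The interferon response motif in the Tnfsf13b window began 16 bases before that start site, and 3.44% of the 32851 windows in the table held such a match. The E-box stood in the windows of Cd79a and Cd22 and in 20.2% of all windows. The Ets motif of Cd79a was in 23.8% of all windows, and the Ebf1 motif of Cd22 in 13.7%. The Cd22 window (30878979 to 30879278) lies inside the annotated gene, which spans 30865402 to 30880342 on the minus strand. Its start site is therefore not at the upstream end of that annotation. The octamer (1.74% of all windows) and the Stat motif (8.30%) had no match in the 5 windows, and the Pax5 window and the upstream Tnfsf13b window held none of the 6 motifs. A match is a stretch of letters and not a measured binding site.

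Total counts ran from 15531996 to 18065078 per library, and 15847 genes passed the filter on low counts, all 9 members among them. A member could pass through the DMSO libraries alone, so the share that passed says nothing about the set. NECA replicate 2 stood apart from the rest, its correlation across genes with the rest having a median of 0.935, against 0.961 to 0.980, and genes of the ileum were highest in it. The tissue label fits its markers: the 8 epithelial genes summed to 9712 to 11426 CPM (counts scaled to library size with edgeR's TMM factors) over the libraries. Fewer B cells and less RNA per B cell cannot be told apart in such tissue libraries.

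Cd79a and Cd79b encode the signalling chains that pair with each other in the receptor. Cd79a (ENSMUSG00000003379, chromosome 7, 24897381 to 24902197, GRCm38) had 122, 152 and 10 counts in DMSO replicates 1 to 3 and 2, 34 and 4 in NECA replicates 1 to 3. Cd79b (ENSMUSG00000040592, chromosome 11, 106311341 to 106314762) had 108, 132 and 44 counts in DMSO against 23, 35 and 31 in NECA. Both were high in DMSO replicates 1 and 2, but DMSO replicate 3 lay below NECA replicate 2 in Cd79a and above every NECA library in Cd79b. In CPM, Cd79a was at 5.87 ± 4.84 in DMSO and at 0.685 ± 0.876 in NECA (SD over the 3 libraries of a group, here and below); the log2 fold change was -3.03 (SE 1.10). Cd79b was at 5.87 ± 3.04 and 1.67 ± 0.160 CPM, and its log2 fold change was -1.81 (SE 0.43).

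The balance between the paired chains moved with the library. Per length, in FPKM (fragments scaled to transcript length and library size, as the authors deposited them), Cd79b over Cd79a was 0.901 in DMSO replicate 1, 0.884 in DMSO replicate 2 and 1.05 in NECA replicate 2, close to equal. In DMSO replicate 3 the ratio was 4.48 (95% exact interval 2.22 to 9.98). It was 11.7 (2.89 to 102) in NECA replicate 1 and 7.89 (2.79 to 30.8) in NECA replicate 3, over 2 and 4 Cd79a counts. The intervals of these 3 libraries lie above those of the other 3, of which the highest bound was 1.73. Cd79b transcripts were thus still counted where those of Cd79a were nearly gone, in libraries of both groups. All such intervals cover counting error only, since amplified reads carrying no molecular identifiers may repeat a molecule.

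The heavy chain gene Ighm (ENSMUSG00000076617, chromosome 12, 113418558 to 113422730) was the most abundant member per length. It had 541, 578 and 253 counts in DMSO against 103, 246 and 185 in NECA, and every NECA library lay below every DMSO library in CPM (28.2 ± 11.6 against 9.85 ± 2.88 CPM, log2 fold change -1.52, SE 0.36). Ighd (ENSMUSG00000104213, chromosome 12, 113406604 to 113416324) lies 2233 bases downstream of Ighm and is made by alternative splicing of the same primary transcript in mature B cells. It had 40, 72 and 5 counts in DMSO against 4, 11 and 2 in NECA (2.45 ± 2.26 against 0.307 ± 0.221 CPM, log2 fold change -2.93, SE 0.95). DMSO replicate 3 lay among the NECA libraries in Ighd.

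The share of Ighd in the summed Ighd and Ighm counts was 6.88% (exact interval 4.96% to 9.26%) in DMSO replicate 1 and 11.1% (8.77% to 13.7%) in DMSO replicate 2. It was 1.94% (0.632% to 4.46%) in DMSO replicate 3 and 3.74% (1.03% to 9.30%), 4.28% (2.16% to 7.53%) and 1.07% (0.130% to 3.81%) in NECA replicates 1 to 3. The library with the highest share was DMSO replicate 2, whose interval lay above those of DMSO replicate 3, NECA replicate 2 and NECA replicate 3 and met those of the remaining libraries.

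Igkc (ENSMUSG00000076609, chromosome 6, 70726435 to 70726966), the kappa light chain constant gene, had 91, 100 and 9 counts in DMSO against 1, 17 and 2 in NECA. Its level was 4.11 ± 3.18 CPM in DMSO against 0.342 ± 0.438 CPM in NECA, with a log2 fold change of -3.48 (SE 1.05), and the groups overlapped because DMSO replicate 3 lay below NECA replicate 2. Ighm over Igkc in FPKM was 1.68 and 1.63 in DMSO replicates 1 and 2. The ratio was 7.93 (4.11 to 17.5) in DMSO replicate 3 and 4.08 (2.50 to 7.12) in NECA replicate 2. In NECA replicates 1 and 3, which held 1 and 2 Igkc counts, it was 29.1 (5.10 to 1159) and 26.1 (7.12 to 217). So Ighm had 253, 103 and 185 counts in the 3 libraries (DMSO replicate 3, NECA replicates 1 and 3) in which Igkc had 9, 1 and 2. Gm30211, on the same strand, overlaps Igkc.

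**Figure D1:**
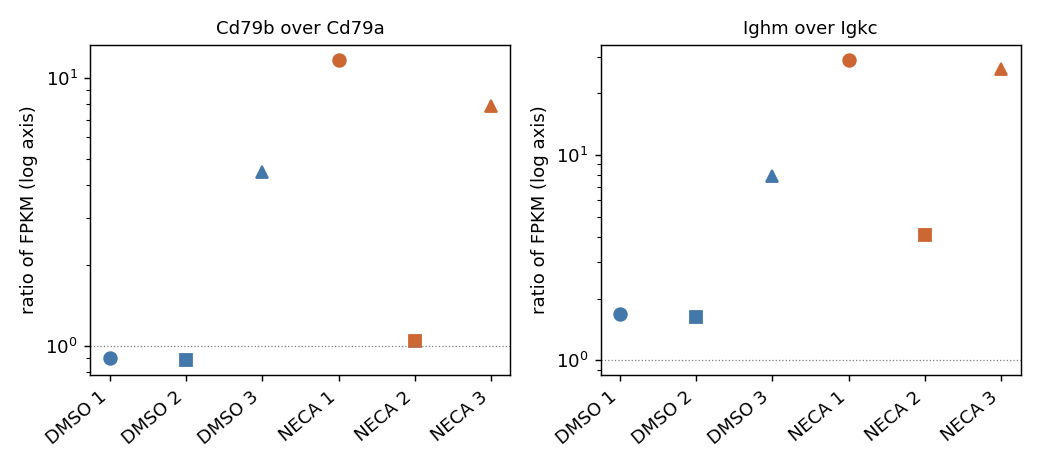
Ratio of authors' FPKM values on a log axis for Cd79b over Cd79a (left) and Ighm over Igkc (right), 1 point per library, with circles, squares and triangles for replicates 1 to 3, blue for DMSO and orange for NECA; the dotted line is a ratio of 1. DMSO replicate 3 (4.48 and 7.93) lies with NECA replicates 1 and 3 on the left and nearest to NECA replicate 2 (4.08) on the right.

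Kappa and lambda light chains are alternatives, and a B cell normally makes one of them. The lambda constant genes Iglc1, Iglc2 and Iglc3 together had 37, 40 and 2 counts in DMSO against 0, 7 and 0 in NECA. Kappa made up 71.1% (exact interval 62.4% to 78.8%) of light chain counts in DMSO replicate 1, 71.4% (63.2% to 78.7%) in DMSO replicate 2 and 70.8% (48.9% to 87.4%) in NECA replicate 2. The other 3 libraries had 11, 1 and 2 light chain counts, too few for a share. Where light chains could be counted, the kappa share was between 70.8% and 71.4%, with a wide interval in NECA replicate 2. Gm30211 overlaps Igkc on the same strand, and how reads in the overlap were counted is not given. The kappa share is therefore one of counts and not a measure of the light chains made. Iglc2 and Iglc3 are near-identical genes whose reads the counting may have divided arbitrarily, which their sum avoids.

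Variable segments gave a similar picture. Of the 348 heavy, kappa and lambda V segments listed, 71 had at least 1 count. The V segments summed to 62, 67 and 4 counts in DMSO against 0, 15 and 4 in NECA, and 40, 41 and 3 segments were seen in the DMSO libraries against 0, 11 and 3 in the NECA libraries. No segment had more than 5 counts in a library, and Iglv1 had the largest total, 11 counts over the 6 libraries. In DMSO replicates 1 and 2 the counts were therefore spread thinly over many segments rather than held by a few. The 0 in NECA replicate 1 allows up to 3 counts.

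Switched heavy chains were almost absent. Igha, the constant gene of IgA, had 7, 11 and 0 counts in DMSO against 2, 0 and 0 in NECA. The 4 IgG genes and Ighe had at most 4 counts in a library, and Ighg1 had 0 in all. Jchain, which joins the units of IgA and IgM, had 3, 2 and 0 counts in DMSO against 1, 0 and 0 in NECA, and the plasma cell receptor Tnfrsf17 had 1 count in each of DMSO replicate 3 and NECA replicate 2. Heavy chain constant counts were thus mostly those of Ighm, with some of Ighd, in the libraries of both groups. NECA replicates 1 and 3 had 1 and 2 light chain counts and 0 and 4 V segment counts. There, Ighm counts do not show that whole immunoglobulin was made. Of 7 plasma cell genes, 4 passed the filter on low counts and edgeR called 0, with a median log2 fold change of 0.16. The most abundant, Xbp1 (165 ± 20.3 against 187 ± 6.09 CPM) and Sdc1 (94.0 ± 22.4 against 148 ± 90.5 CPM), are also used by epithelium. Mzb1, a chaperone of antibody-making and some other B cells that did not pass the filter, had 25, 32 and 2 counts in DMSO against 3, 4 and 1 in NECA, so the median does not describe it; it was named after its values were seen. Precursor B cell genes were at trace levels: Vpreb3 had 8, 11 and 0 counts against 0, 1 and 4, and Rag1, Rag2, Dntt, Igll1, Vpreb1 and Vpreb2 had at most 6 counts in a library. The precursor list's tested genes, Cd93 (a mean of 46.2 CPM in each group) and Il7r (means of 1.09 CPM in DMSO and 1.08 CPM in NECA), are shared with other cells.

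Among the surface proteins, Ms4a1 (ENSMUSG00000024673, chromosome 19, 11249675 to 11266241), which encodes CD20, had 50, 56 and 6 counts in DMSO against 5, 26 and 3 in NECA. Its level was 2.30 ± 1.74 against 0.597 ± 0.610 CPM (log2 fold change -1.89, SE 0.91), with DMSO replicate 3 again below NECA replicate 2. Cd22 (ENSMUSG00000030577, chromosome 7, 30865402 to 30880342), a sialic acid binding receptor that dampens B cell receptor signals, had 64, 57 and 42 counts in DMSO against 23, 41 and 60 in NECA. Its groups overlapped (3.34 ± 0.628 against 2.32 ± 1.01 CPM, log2 fold change -0.52, SE 0.37), since NECA replicate 3 lay above DMSO replicate 3. In NECA replicate 3, Cd22 was at 0.681 FPKM and Ms4a1 at 0.0277 FPKM, and in DMSO replicate 1 they were at 0.702 and 0.447 FPKM. Cd22 thus ran unlike the other B cell members. Gm29439, annotated on the opposite strand, overlaps Cd22, and without a stated strand setting their reads cannot be told apart.

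Pax5 (ENSMUSG00000014030, chromosome 4, 44524757 to 44710487), the transcription factor that commits a precursor to the B lineage, had 47, 68 and 1 counts in DMSO against 1, 14 and 0 in NECA. The 0 in NECA replicate 3 allows up to 3 counts, or 0.172 CPM. Its level was 2.41 ± 2.25 against 0.254 ± 0.386 CPM (log2 fold change -3.12, SE 1.33). Of its 4 overlapping annotated genes, 3 are on the opposite strand. DMSO replicate 3 held as little Pax5 as NECA replicate 1.

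**Figure D2:**
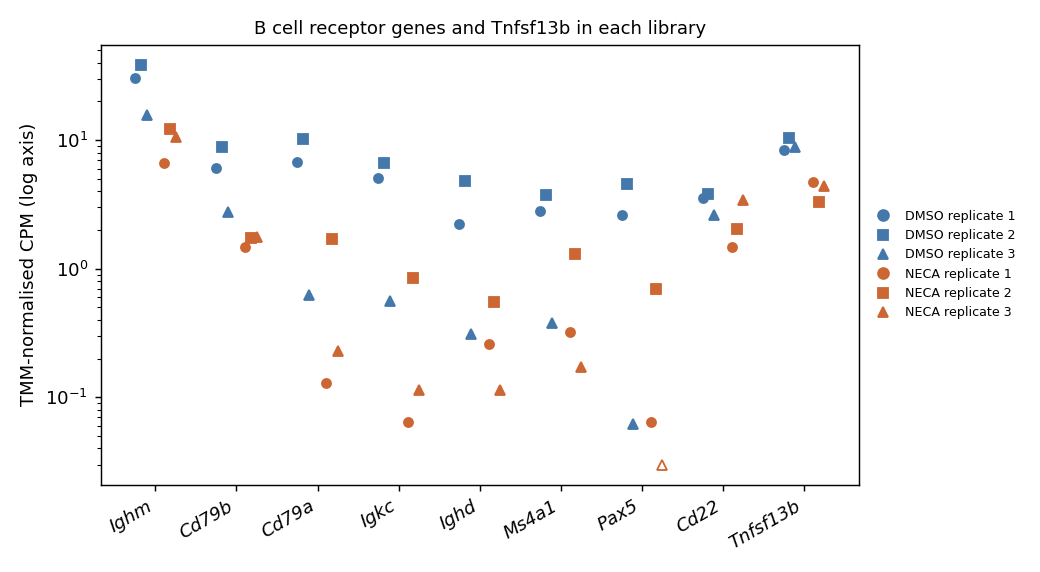
TMM-normalised CPM on a log axis for the 9 genes in each library, with circles, squares and triangles for replicates 1 to 3, blue for DMSO and orange for NECA; the open triangle is a count of 0 drawn at the bottom. DMSO replicate 3 lies with or near the NECA libraries for Cd79a, Igkc, Ighd, Ms4a1 and Pax5, and the colours separate for Ighm, Cd79b and Tnfsf13b.

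Tnfsf13b (ENSMUSG00000031497, chromosome 8, 10006467 to 10039072), the gene of BAFF, ran differently. It had 149, 156 and 142 counts in DMSO against 73, 66 and 77 in NECA, which is 8.31, 10.4 and 8.88 CPM against 4.72, 3.29 and 4.42 CPM. The DMSO libraries resembled each other, DMSO replicate 3 among them, and every NECA library lay below all of them. The means were 9.21 ± 1.10 and 4.14 ± 0.753 CPM, 2.22-fold higher in DMSO, with a log2 fold change of -1.15 (SE 0.23). The spread of 1.10 CPM within DMSO was small beside the mean, whereas the SD of Cd79a, 4.84 CPM, was nearly as large as the Cd79a mean. Cd22 also varied little within DMSO (3.34 ± 0.628 CPM). Gm44789 overlaps it on the opposite strand, as 4930526L06Rik does Ms4a1.

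All 9 members had a lower fitted level in NECA, where 51% of the 15847 tested genes did, and 8 members had a log2 fold change below -1, where 2.22% of tested genes did. The groups did not overlap, with NECA lower, in 3 of the 9 (Ighm, Cd79b and Tnfsf13b), against 7.16% of tested genes, and 6.49% did not overlap with NECA higher. Since the genes were chosen for this difference, nothing is read from these shares. The median log2 fold change of the 8 B cell genes was -2.41, beside -0.01 over all tested genes. It was -1.70 without DMSO replicate 2, -1.80 without DMSO replicate 1 (over the 7 members that then passed the filter), -2.92 when DMSO replicate 3 was left out and -3.43 when NECA replicate 2 was. The size of the difference in B cell genes therefore rested on single libraries of both groups. That of Tnfsf13b ran from -1.01 to -1.25 when each library was left out.

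Per length, the order of the members in DMSO was Ighm (14.8 ± 5.97 FPKM), Igkc (7.61 ± 5.86), Cd79b (4.04 ± 2.07), Cd79a (3.96 ± 3.26), Tnfsf13b (1.32 ± 0.149), Ighd (1.27 ± 1.16), Cd22 (0.653 ± 0.120), Ms4a1 (0.367 ± 0.275) and Pax5 (0.268 ± 0.249). For each pair of neighbours in that order the ranges of mean ± SD overlapped. The order of the means was not that of each library: Cd79a lay above Cd79b in DMSO replicate 1 (4.63 and 4.17 FPKM) and DMSO replicate 2 (6.84 and 6.05 FPKM), and Igkc was at 1.05 FPKM in DMSO replicate 3, below Cd79b (1.91 FPKM) and Tnfsf13b (1.28 FPKM). In NECA, Ighm (5.20 ± 1.48 FPKM) was highest in every library. Cd79b (1.16 ± 0.103 FPKM) came second in NECA replicates 1 and 3, and Igkc (0.638 ± 0.814 FPKM) second in NECA replicate 2. Igkc, at 1.58 FPKM in that library, was at 0.122 and 0.215 FPKM in NECA replicates 1 and 3, below Tnfsf13b (0.692 and 0.642 FPKM).

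Other genes of B cells were tested across all genes, and edgeR's quasi-likelihood test called 0 of 15847 genes (0%) after Benjamini-Hochberg adjustment, with a smallest adjusted p of 0.589 and 868 genes (5.48%) at an unadjusted p under 0.05. DESeq2 called 11 genes (0.0694%), with 2 in the interferon list and 2 in the proximal bowel list described further on. None of the B cell lists below held a called gene in either test, and their smallest adjusted p with edgeR was 0.738 unless another is given. The lists were chosen with earlier results of these data known.

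The 9 tested genes of a 12-gene list of other B cell surface proteins all had a negative log2 fold change, with a median of -0.91, beside 51% negative among all tested genes. Without overlap between the groups was 1 of the 9, Ly86, a share near the 7.16% of all tested genes. Cr2, a complement receptor that acts with the B cell receptor, had 10, 25 and 0 counts in DMSO against 1, 1 and 0 in NECA and did not pass the filter. The most abundant of the list, Cd72 (8.36 ± 2.26 against 4.44 ± 2.47 CPM) and Ly86 (7.15 ± 1.91 against 4.22 ± 0.921 CPM), are also made by myeloid cells and had 131 and 111 counts in DMSO replicate 3.

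Fcer2a, the low-affinity IgE receptor of mature follicular B cells, had 48, 61 and 0 counts in DMSO against 2, 3 and 2 in NECA. In the summed counts of Fcer2a and Cd79a its share was 28.2% (exact interval 21.6% to 35.6%) in DMSO replicate 1, 28.6% (22.7% to 35.2%) in DMSO replicate 2 and 8.11% (1.70% to 21.9%) in NECA replicate 2. The interval of NECA replicate 2 lay below that of DMSO replicate 2 and met that of DMSO replicate 1 by a small margin. The other libraries had 10 or fewer counts in all. Fcer2a was singled out after its values were seen, and 1 library is no replicate of a group.

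Transcription factors of B cells other than Pax5 had a median log2 fold change of -0.41 in 12 tested genes of 13, of which 10 were negative. Ebf1, which acts with Pax5 in B cells and is also made by stromal cells, was at 8.06 ± 1.10 against 6.22 ± 0.571 CPM (log2 fold change -0.38, SE 0.21). Irf8 (198 ± 56.8 against 216 ± 101 CPM) and Tcf3 (121 ± 8.42 against 141 ± 18.4 CPM), the most abundant of the list, are broadly expressed. Among factors more restricted to lymphoid cells, named after their values were seen, Spib had 61, 70 and 11 counts in DMSO against 0, 28 and 9 in NECA (log2 fold change -2.13, SE 0.997). Pou2af1, a coactivator of immunoglobulin genes that did not pass the filter, had 30, 45 and 5 against 2, 4 and 1. Pou2f2 had 54, 80 and 45 against 29, 28 and 36 (log2 fold change -1.06, SE 0.36). It was the sole gene of the 12 tested whose groups did not overlap, a share near the 7.16% of all tested genes. Other factors of the list were nearer 0, with overlapping groups: Ikzf3 (-0.74, SE 0.57), Ikzf1 (-0.73, SE 0.30), Irf4 (-0.63, SE 0.60), Bach2 (-0.41, SE 0.30) and Bcl11a (-0.23, SE 0.26). The kinases and adaptors downstream of the receptor had a median of -0.20 in 17 tested genes of 18, with 12 negative, led in level by Dapp1 (84.9 ± 5.52 against 81.9 ± 27.6 CPM) and Lyn (62.0 ± 4.46 against 53.4 ± 9.51 CPM).

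**Figure D3:**
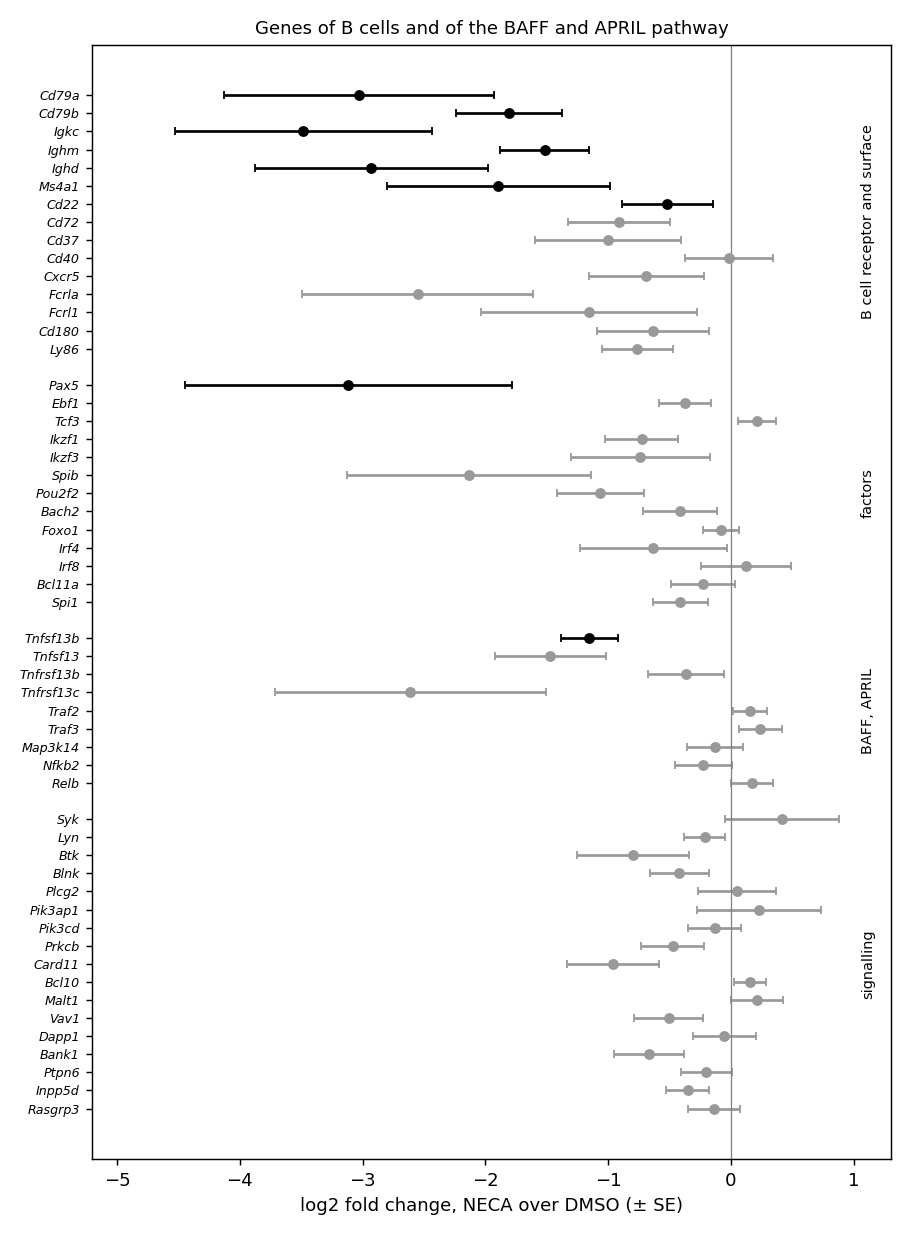
Log2 fold change of NECA over DMSO with its standard error for the 9 members (black) and for tested genes of the B cell surface, transcription factor, BAFF and APRIL, and signalling lists (grey), from edgeR over 3 libraries per group. Igkc (-3.48) is the lowest of the members and Cd22 (-0.52) the highest, and the signalling genes lie around the median of -0.20.

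The genes of the BAFF pathway did not run alike. The related ligand Tnfsf13 (APRIL) had 48, 30 and 31 counts in DMSO against 15, 7 and 19 in NECA (2.21 ± 0.409 against 0.803 ± 0.398 CPM, log2 fold change -1.47, SE 0.45), and its groups did not overlap, as those of Tnfsf13b did not. The BAFF receptor Tnfrsf13c had 47, 65 and 2 counts in DMSO against 1, 16 and 4 in NECA, so that it ran over the libraries as Cd79a did (log2 fold change -2.61, SE 1.10). The receptor TACI, Tnfrsf13b, was level by comparison, at 3.37 ± 0.343 against 2.61 ± 0.773 CPM (log2 fold change -0.37, SE 0.31). Of the 8 tested genes of this 9-gene list 5 were negative, with a median of -0.18, and the most abundant were Nfkb2 (25.6 ± 0.940 against 21.9 ± 7.04 CPM) and Traf2 (23.3 ± 1.53 against 25.9 ± 0.106 CPM), both part of the intracellular path of the receptor.

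Several leukocyte genes were also lower in NECA, as Tnfsf13b was. Ptprc, which encodes CD45 on all leukocytes, was at 33.8, 24.0 and 27.1 CPM in DMSO and 14.5, 17.7 and 16.0 CPM under NECA (log2 fold change -0.81, SE 0.18), with no overlap of the groups. Tnfsf13b divided by Ptprc in CPM was 0.246, 0.436 and 0.327 in DMSO and 0.326, 0.185 and 0.276 in NECA. On that scale the groups overlapped, and the log2 ratio of the group means was -0.36. Scaled in the same way, Ighm differed by -0.77 and Cd79b by -1.06, both nearer 0 than unscaled, and Cd22 was higher in NECA, at 0.26. The median of the 8 B cell genes was then -1.79. The 18 genes of monocytes, macrophages and granulocytes had 15 of 17 tested genes negative, with a median of -0.43, and the groups did not overlap, with NECA lower, in 4 of the 17 (Cd68, Itgam, Mrc1 and Cx3cr1), beside 7.16% of all tested genes. Their summed level was 646 to 836 CPM in DMSO and 366 to 739 CPM in NECA. Most of it was Csf1r (337 ± 45.2 against 313 ± 181 CPM) and Lyz2 (107 ± 24.7 against 72.7 ± 26.4 CPM). Csf1r was at 455, 110 and 374 CPM in NECA replicates 1 to 3, and the lowest summed level was that of NECA replicate 2. No gene of this list was at 0 in a group. Interferon-induced genes, of which 13 of 14 were negative with a median of -0.46, summed to 1827 to 2351 CPM in DMSO and 1028 to 1545 CPM in NECA, with Ifit2 (574 ± 63.8 against 145 ± 85.6 CPM) and Ifit1 (364 ± 29.5 against 279 ± 86.3 CPM) the most abundant. In 7 of these 14 the groups did not overlap, with NECA lower, beside the same 7.16%. The part of myeloid cell number or interferon in the Tnfsf13b difference was not tested.

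**Figure D4:**
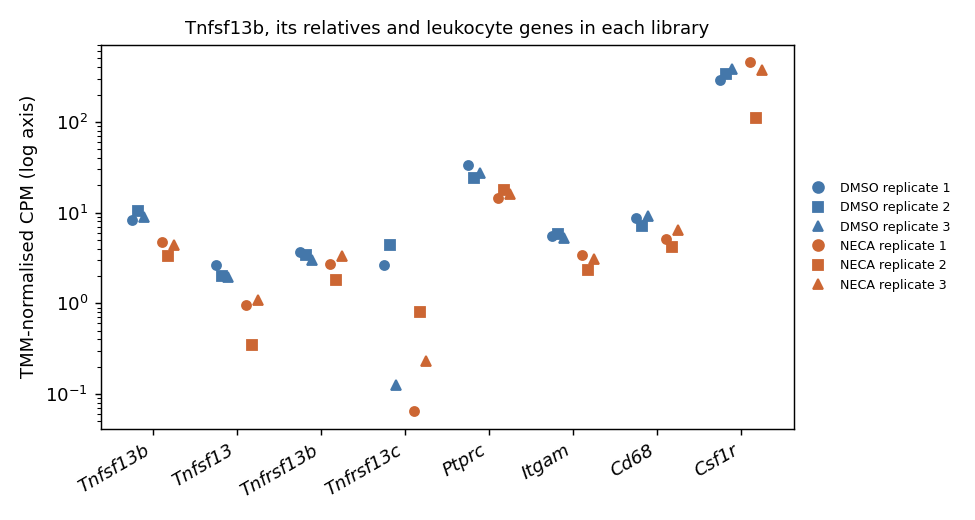
TMM-normalised CPM on a log axis for the BAFF gene Tnfsf13b, the APRIL gene Tnfsf13, the receptors Tnfrsf13b and Tnfrsf13c and 4 leukocyte genes in each library, with circles, squares and triangles for replicates 1 to 3, blue for DMSO and orange for NECA. Tnfsf13b, Tnfsf13, Ptprc, Itgam and Cd68 separate by group, whereas DMSO replicate 3 lies among the NECA libraries for Tnfrsf13c.

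Genes of follicles and of other cells that could accompany B cells were read in the same libraries. Cxcl13, the chemokine that draws B cells into follicles, had 104, 129 and 19 counts in DMSO against 35, 42 and 31 in NECA, and Ltb, a lymphotoxin chain made by lymphocytes, had 102, 137 and 21 against 27, 72 and 30. Both were highest in DMSO replicates 1 and 2, as the B cell genes were, and lowest in counts in DMSO replicate 3. Cxcl13 and Ltb were named after their values were seen. Ccl21a and Madcam1 of the same list, named likewise, ran otherwise. Ccl21a had 28, 70 and 112 counts in DMSO against 34, 79 and 24 in NECA. Madcam1 had 349, 171 and 295 against 365, 325 and 356 (log2 fold change 0.28, SE 0.25). The 12-gene follicle list, which these genes belong to, had 6 of 8 tested genes negative and a median of -0.60. Its summed levels were 375 to 391 CPM in DMSO and 286 to 395 CPM in NECA. Ltbr (221 ± 9.96 against 234 ± 19.8 CPM) had the highest level of the list, and Ccl19 was at 0 in DMSO.

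T cell genes had a median of -0.61 with all 10 tested of 15 negative. Trac made up most of their sum, at 67.2 ± 23.6 CPM in DMSO and 59.1, 1.74 and 37.4 CPM in NECA replicates 1 to 3. The other 14 genes together, of which Cd4 (9.05 ± 1.76 against 5.30 ± 1.38 CPM) was the most abundant, summed to 30.2, 28.0 and 19.0 CPM in DMSO against 13.4, 18.3 and 15.6 CPM in NECA. NECA replicate 2, lowest for Trac, was thus the highest NECA library for the rest. MHC class II genes, which B cells share with other antigen-presenting cells, had a median of -0.46 with all 10 negative, and summed to 531 to 749 CPM in DMSO and 416 to 516 CPM in NECA, led by Cd74 (274 ± 59.6 against 199.8 ± 20.3 CPM) and H2-Ab1 (119 ± 19.6 against 90.2 ± 13.5 CPM). No gene of either list was at 0 in a group. The part of these cells in the results was not tested.

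Position along the bowel also moved with the libraries. Ileal genes summed to 230 and 246 CPM in DMSO replicates 1 and 2 and to 518 CPM in DMSO replicate 3, and to 304, 2594 and 562 CPM in NECA replicates 1 to 3, led by Fabp6 and Slc51a. All 6 were higher in NECA, with a median of 2.18. The 7 proximal genes, led by Lct and Gata4, were all negative with a median of -1.02, and summed to 2357 to 2875 CPM in DMSO and 168 to 2516 CPM in NECA. DMSO replicates 1 and 2, the libraries with the most B cell transcripts, thus had the least ileal transcripts. The part of bowel position in the B cell results was not tested. Red blood cell genes, led by Hba-a1 and Hbb-bs, summed to 338 to 670 CPM in DMSO and 200 to 687 CPM in NECA with a median of -0.11. The pancreas list had Amy2a5 at 0 throughout and Pnlip, Prss2 and Try4 at 0 in NECA, with its sum of 20.1 to 58.4 against 0.997 to 74.6 CPM nearly all Ctrb1, followed by Cpb1. The fat list had Adipoq at 0 throughout and summed to 274 to 310 and 71.6 to 313 CPM, nearly all Cidec and Fabp4, which enterocytes and other cells also make. The epithelial list, led by Fabp2 and Lgals4, had a median of 0.19.

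The genes whose levels ran most like those of the 8 B cell members over the 6 libraries were sought by the root mean square difference between centred log2 CPM profiles, a distance in which a smaller value is more alike. Fcrla, a B cell Fc receptor relative, was closest at 0.25, with 35, 48 and 6 counts in DMSO against 1, 14 and 2 in NECA. H2-Ob, an MHC class II gene of B cells (0.42), Lef1, a transcription factor (0.46), and Insl5, a hormone of enteroendocrine cells (0.48), were also among the closest 5, beside a median of 1.39 over the 14329 genes compared. Among the members themselves, Ms4a1 (0.35) and Ighd (0.35) lay closest to the mean profile and Cd22 (1.13) farthest, with Tnfsf13b, left out of that mean, at 1.09. Closest to Tnfsf13b were Crry-ps (0.11), Hist1h2be (0.14), Itgam (0.14), Gjd2 (0.16) and Trim30b (0.16), beside a median of 0.65. Of these, Itgam, an integrin chain of myeloid cells, had 98, 87 and 84 counts in DMSO against 53, 47 and 53 in NECA, and the others had at most 29 counts in a library.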

How the data were processed

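The authors deposited, for each of 6 libraries, a whole-number count per gene and an FPKM value, per the file headers. Per the submitters' processing notes, HISAT, StringTie and edgeR were used with mm10/GRCm38. For versions, strand setting and multiply mapped reads, nothing was given in the sources used here. Per the labels' protocols, cDNA was made with SMARTer chemistry and amplified. Counts were filtered with filterByExpr (minimum count 10, minimum total 15), TMM-scaled and fitted with edgeR 4.0.16 (quasi-likelihood) in R 4.3.3, NECA against DMSO, 3 libraries each. Tests were two-sided, with Benjamini-Hochberg adjustment over all genes, with a threshold of 0.05. SE is the fold change over the root of its F. DESeq2 1.42.0, other filters and scalings, a replicate block, robust dispersions and left-out libraries were alternatives. Intervals of shares and ratios are Clopper-Pearson, 95%. FPKM served only for levels per length. Coordinates are GENCODE M21 (GRCm38), which held 54409 of 54532 identifiers (99.8%). On data simulated for NECA against DMSO (15675 genes), edgeR recovered 18.4% of genes changed by 1 log2 unit and 98.2% of those changed by 2, with 2 false calls. The simulation gave every gene the same biological coefficient of variation, 0.276. The recovered shares therefore do not describe genes that varied more between libraries, such as Cd79a (5.87 ± 4.84 CPM in DMSO).

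The members and lists were chosen with earlier results of these data known. Named genes were the members, the 2 most abundant genes of each list, a set of B cell genes and the 5 nearest profiles (log2 CPM, prior count 2, without predicted genes or immunoglobulin segments). Some genes that this rule names are not reported here; list counts, medians and sums include them.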

Additional observations from a re-analysis of the deposited data

How the results depend on the processing

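The fitted differences of the 8 B cell genes were negative in 111 of 112 alternative values, the exception being Cd22 scaled to Ptprc, at 0.26. The genes were chosen for lower counts in NECA and all values come from the same 6 libraries. The count of negative values is therefore no support for the difference. Leaving out 1 library at a time, the B cell median ran from -3.43 to -1.70, Tnfsf13b from -1.25 to -1.01, and edgeR called 0 genes each time. With the replicate block the B cell median was -2.38 and Tnfsf13b -1.16, and edgeR called 0 genes. Deviations from the group means of same-numbered libraries correlated at 0.01, -0.19 and -0.02 across genes, and DMSO replicate 2 correlated best with NECA replicate 1 (0.25). With 3 libraries per group and bowel position moving between them, these values cannot tell whether the replicate numbers pair the libraries. Leaving out NECA replicate 2 and DMSO replicate 3 together gave a B cell median of -3.94 and 10 called genes (Cd79a and Igkc among them). Those are the NECA library with the most and the DMSO library with the fewest Cd79a counts, so this choice widens the difference by construction. edgeR called 2 genes with no filter on low counts, and DESeq2 called 11, Tnfsf13b among them, which is no support for a gene chosen on this contrast. Scaled to Ptprc, Tnfsf13b differed by -0.36. With the filter at a mean of 5 CPM, Ighm was the sole B cell gene left, at -1.54. Without NECA replicate 2, Pax5 differed by -5.98, Igkc by -5.38 and Cd79a by -4.95, over 1 to 6 counts left in NECA, so these are not measured folds. With counts this low, levels in DMSO replicate 3 and in NECA replicates 1 and 3 cannot be told from each other in Pax5, Ms4a1 or Ighd.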
